A study of Mus musculus with 3 samples.

Results

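Forkhead genes encode transcription factors that share a winged-helix DNA-binding domain and are grouped into subfamilies, each named by the letter that follows Fox. They were read from 3 Illumina Mouse-6 bead arrays hybridized with total RNA of wild-type mouse embryos at the early headfold (EHF) stage, of which the embryonic region was used. The sample labels give the strain as Cd-1, no allele or treatment, and 3 replicates of this one group, so no genotypes or stages are compared. Embryos had been bisected at the border between the extraembryonic and embryonic regions. Whether an array holds 1 embryo or a pool is not settled by the labels, so the p-values below measure only the spread between these arrays, which may be technical. Members were the symbols formed of Fox, a lower-case letter, a number, and an optional lower-case letter, which gave 41 of the 30854 symbols of the deposited table, in 18 subfamilies. One of them, *Foxf1a*, is an older symbol of *Foxf1*. *Foxs1* and *Foxr2* stand in the table under other symbols and were not counted.

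Many forkhead factors act as early lineage regulators in the gastrulating embryo. Foxa proteins open chromatin for endoderm, node, and notochord programmes, Foxc and Foxf proteins act in mesoderm, and Foxh1 carries Nodal signals to DNA together with Smad proteins. Foxo, Foxm1, and Foxk proteins serve growth control and the cell cycle in many cell types.

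At this stage 10 of the 41 forkhead genes were detected on all 3 arrays, namely *Foxa1*, *Foxa3*, *Foxc1*, *Foxc2*, *Foxd4*, *Foxf1a*, *Foxh1*, *Foxk2*, *Foxm1*, and *Foxn3*. Detection means a deposited detection p under 0.01, the share of negative-control probes that were as bright on the same array. This is 24.4% of the forkhead genes, beside 20.6% of all symbols, so the family as a whole lay near the background share. A further 10 were detected on 1 or 2 arrays (12.4% of all symbols were), and 21 on no array. Detection on at least 1 array thus held for 20 forkhead genes, beside 33.0% of all symbols. The detected genes came from 8 of the 18 subfamilies, and 5 subfamilies, Foxe, Foxl, Foxo, and Foxr among them, had no member detected on any array.

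A level is given below as the log2 signal minus the background level of the same array, which is the lowest log2 signal among single-probe symbols whose detection p lay between 0 and 0.01. That background level was 6.69, 6.66, and 6.58 on replicates 1, 2, and 3. It marks the detection threshold of 0.01 and not the typical signal of negative-control probes. A level under 0 can thus still be brighter than most of these probes, and above or below background is meant in this sense. The deposited signals still hold the background, so a level of this kind understates the fold over background, and the level of 1 gene is read against 0 and between arrays, not as an amount relative to another gene. A one-sided limma test of the level over all 30854 symbols, with Benjamini-Hochberg adjustment, called 14 forkhead genes at an adjusted p under 0.05, beside 23.4% of all symbols. It called the 10 detected genes and 4 more. For a symbol with 1 probe, a level above 0 and a detection p under 0.01 are nearly the same condition on an array. The overlap of the calls is therefore largely set by the definition of the background level and is no independent support. As a description of position relative to background, the median level of the 41 members was -0.09, beside -0.15 over all symbols.

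**Figure D1:**
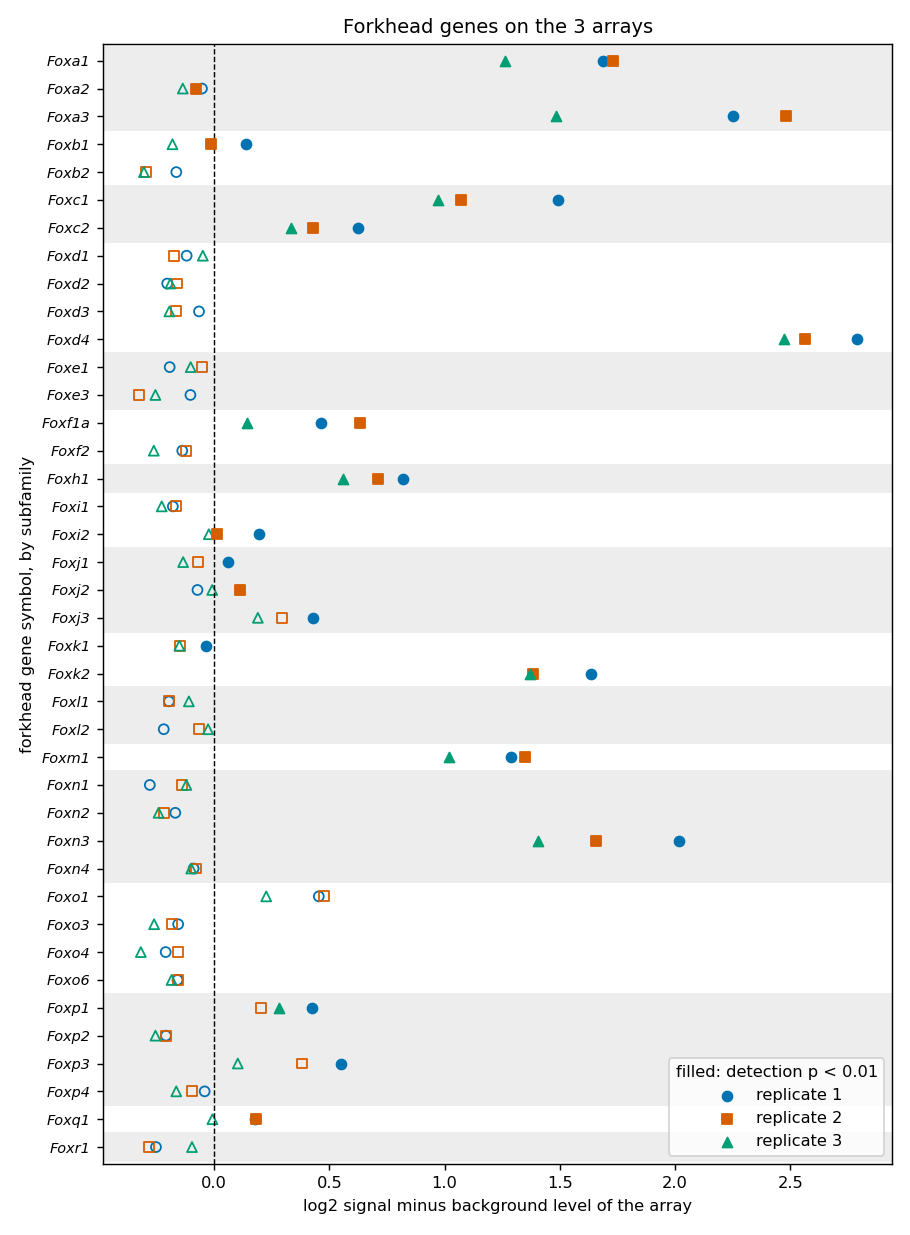
Log2 signal minus the background level of the array (x axis) for the forkhead symbols (y axis, shaded by subfamily, with 1 of the 41 not shown) on replicates 1, 2, and 3, with filled symbols where the detection p was under 0.01 and the dashed line at the background level. The 10 detected genes have filled symbols to the right of the line on all 3 arrays, which for genes with 1 probe follows largely from how the line is defined. The genes detected on no array, apart from *Foxo1*, have mean levels between -0.26 and -0.09.

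The Foxa subfamily, named for pioneer factors of endoderm and the axial midline, was split. *Foxa3*, known from endoderm and liver, had levels of 2.25, 2.48, and 1.48 on replicates 1, 2, and 3. All 3 arrays were far above background, and replicate 3 was the lowest. Its mean level was 2.07 ± 0.52 (SD, n = 3), with an adjusted p of 0.00168 from limma, and 0.0663 when the variance was not moderated. *Foxa1*, which shares endodermal roles with its relatives, had levels of 1.69, 1.73, and 1.26, a mean of 1.56 ± 0.26 (SD, n = 3), and an adjusted p of 0.000495. *Foxa2*, required for the node and notochord, had levels of -0.05, -0.08, and -0.14. Its signal, a mean over at least 2 probes, thus lay at or just under the background level on each array. The detection p of *Foxa2* was 0.117, 0.00863, and 0.283, so it passed on replicate 2 alone. Such a signal is a limit of detection and does not show that the transcript was absent. At a later stage the paper used FoxA2 protein to mark gut endoderm, node, and midline. Of 14 genes that work with Foxa factors in node and endoderm, 13 were detected on all 3 arrays (92.9%, median level 0.82), and 11 passed the limma test. Among them *Chrd*, a secreted BMP antagonist of the node, had a level of 0.94 ± 0.24 (SD, n = 3), *Gata6*, an endoderm regulator, 2.39 ± 0.13, *Gsc*, a homeobox gene of the organizer, 0.32 ± 0.08, and *Hhex*, a homeobox gene of anterior endoderm, 0.70 ± 0.12. *Cer1*, a secreted Nodal antagonist, was detected by its detection p but had a level of 0.09 ± 0.15, which did not pass the limma test (adjusted p = 0.443).

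RefSeq promoter sequences (GRCm38.p6) were at hand for 26 of the 41 forkhead genes. Those of the 3 Foxa genes are printed because the subfamily was split between members detected and not detected on all 3 arrays. That of *Foxd4* is printed because it had a signal well above the background level while its 3 relatives were detected on no array. Each run holds the 250 bases before a transcription start, 5′ to 3′ on the strand of the gene. Capitals mark the exact string TGTTTAC, a forkhead core motif, or its reverse complement GTAAACA, searched on both strands. Variants of this motif were not searched. The *Foxa1* sequence lies before a start other than the outermost one of the gene.
*Foxa1*, chr12:57546112-57546361, minus strand: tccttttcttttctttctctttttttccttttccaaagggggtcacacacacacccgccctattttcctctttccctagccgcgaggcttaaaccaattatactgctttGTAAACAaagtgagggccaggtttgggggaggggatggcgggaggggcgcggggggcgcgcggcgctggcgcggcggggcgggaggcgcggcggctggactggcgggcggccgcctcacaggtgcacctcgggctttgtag
*Foxa2*, chr2:148046970-148047219, minus strand: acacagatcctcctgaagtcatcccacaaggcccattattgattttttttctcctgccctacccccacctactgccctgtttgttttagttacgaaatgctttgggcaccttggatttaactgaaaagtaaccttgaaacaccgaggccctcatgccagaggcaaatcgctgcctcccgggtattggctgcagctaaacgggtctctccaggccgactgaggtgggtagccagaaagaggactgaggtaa
*Foxa3*, chr7:19023540-19023789, minus strand: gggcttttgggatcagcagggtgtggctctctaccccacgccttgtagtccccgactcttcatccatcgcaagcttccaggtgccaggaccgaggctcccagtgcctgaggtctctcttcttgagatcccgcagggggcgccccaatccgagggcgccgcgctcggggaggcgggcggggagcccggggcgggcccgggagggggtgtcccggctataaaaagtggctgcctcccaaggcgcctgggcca
*Foxd4*, chr19:24901017-24901266, minus strand: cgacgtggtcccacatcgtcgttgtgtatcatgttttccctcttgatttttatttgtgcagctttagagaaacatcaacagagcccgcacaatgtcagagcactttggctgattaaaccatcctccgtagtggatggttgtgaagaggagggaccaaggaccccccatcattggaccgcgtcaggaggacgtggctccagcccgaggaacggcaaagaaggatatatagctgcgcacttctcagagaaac
This exact motif was found in the *Foxa1* window, with its first base 141 bases before the start, and in none of the other 25 forkhead windows. It was found in 3.06% of 27025 windows of all genes, taken as 1 per gene. The 4 printed windows differed in their number of CpG dinucleotides, with 21 for *Foxa1*, 6 for *Foxa2*, 18 for *Foxa3*, and 12 for *Foxd4*. The 6 detected genes with a sequence had a median of 19.5 CpG dinucleotides and a range of 5 to 48. The 20 other forkhead genes had a median of 15.5 and a range of 3 to 36, so the ranges overlapped. The median over all genes was 6. A match of the motif describes letters in this window and not a bound site.

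*Foxh1*, the DNA-binding partner of Smad2 and Smad3 in Nodal signalling, had levels of 0.82, 0.71, and 0.56 on replicates 1, 2, and 3. The lowest array was still above background. The mean of 0.70 ± 0.13 (SD, n = 3) had an adjusted p of 0.00095 from limma. Of its partners, 3 of 8 genes in the table were detected on all 3 arrays (37.5%), and 4 passed the limma test. *Acvr2b*, a type II receptor for Nodal and activin, had a level of 4.72 ± 0.17 (SD, n = 3), and the signal transducers *Smad2* and *Smad3* had 1.28 ± 0.07 and 2.08 ± 0.20. The list genes *Acvr1b*, *Acvr2a*, *Pcsk6*, and *Tdgf1* were detected on no array, with mean levels of -0.08, -0.27, -0.07, and -0.19. *Furin* was detected on 1 array, with a mean level of 1.75, and passed the limma test.

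Both Foxc genes, regulators of paraxial mesoderm, somites, and vessels, were detected. *Foxc1* had levels of 1.49, 1.07, and 0.97, with a mean of 1.18 ± 0.28 (SD, n = 3) and an adjusted p of 0.00141 (0.06 when not moderated). *Foxc2* had levels of 0.62, 0.43, and 0.34, with a mean of 0.46 ± 0.15 and an adjusted p of 0.00512 (0.0888 when not moderated). Both were highest on replicate 1. Of 11 genes of paraxial and vascular mesoderm, 8 were detected on all 3 arrays (72.7%, median level 0.44), and 7 passed the limma test. *Dll1*, a Notch ligand of presomitic mesoderm, had a level of 0.44 ± 0.21 (SD, n = 3), *Etv2*, which directs endothelial and blood progenitors and stands in the table as *Etsrp71*, 2.79 ± 0.19, and *Meox1*, a somite homeobox gene, 1.80 ± 0.04. *Mesp1* and *Notch1*, at 0.39 ± 0.37 and 0.32 ± 0.24, were detected on all 3 arrays but did not pass the limma test (adjusted p of 0.12 and 0.0697).

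*Foxf1a*, needed in extraembryonic and lateral plate mesoderm, had levels of 0.46, 0.63, and 0.14, with a mean of 0.41 ± 0.25 (SD, n = 3). The lowest array, replicate 3, was close to background. Its adjusted p was 0.0334 and rose to 0.142 without replicate 1 and to 0.151 without replicate 2, so the limma call needs both arrays, while the detection p was 0 on all 3. *Foxf2*, its relative in later mesenchyme, had levels of -0.14, -0.12, and -0.26, below the background level on each array. Of 11 genes of lateral mesoderm, 4 were detected on all 3 arrays (36.4%, median level 0.16), and 5 passed the limma test. *Bmp4*, a signal of extraembryonic and lateral mesoderm, had a level of 1.49 ± 0.18 (SD, n = 3), *Gli2*, a transducer of Hedgehog signals, 1.75 ± 0.22, and *Irx3*, an Iroquois homeobox gene, 3.62 ± 0.19. *Nkx2-5*, a regulator of cardiac progenitors, was at 0.16 ± 0.10 and did not pass the limma test (adjusted p = 0.0638). The list genes *Gli1*, *Hand2*, *Tbx20*, and *Vcam1* were detected on no array, with mean levels of -0.26, -0.12, -0.09, and -0.14. *Ptch1*, also detected on no array, had a mean level of 0.84 and passed the limma test. *Gli3* and *Hand1* were detected on 2 arrays, at 2.67 and 0.15, and *Hand1* did not pass the limma test.

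Several forkhead genes lie beside each other in the genome (within 200 kb in GRCm38.p6), and some neighbours shared a detection call while others did not. *Foxf1* and *Foxc2* were detected on all 3 arrays, while *Foxl1*, in the same cluster, was detected on none. In the second cluster *Foxc1* was detected on all 3 arrays, *Foxq1* on 2, and *Foxf2*, which lies near both, on none. *Foxd2* and *Foxe3*, another pair, were detected on no array.

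Of the Foxm, Foxk, and Foxn subfamilies, *Foxm1*, *Foxk2*, and *Foxn3* were detected on all 3 arrays, while *Foxk1* was detected on 1 and the other Foxn genes on none. *Foxm1*, which drives genes of the G2 and M phases, had levels of 1.29, 1.35, and 1.02, a mean of 1.22 ± 0.17 (SD, n = 3), and an adjusted p of 0.000358. *Foxk2*, a repressor that works with chromatin complexes, had levels of 1.64, 1.38, and 1.37, a mean of 1.46 ± 0.15, and an adjusted p of 0.000152. *Foxn3*, a repressor linked to cell cycle checkpoints, had levels of 2.02, 1.66, and 1.40, a mean of 1.69 ± 0.31, and an adjusted p of 0.000627. Each of the 3 was above background on every array, by more than the spread between arrays. Of 15 target genes of Foxm1, 8 were detected on all 3 arrays (53.3%, median level 2.11), and 10 passed the limma test. The mitotic kinases *Aurka* and *Aurkb* had levels of 4.14 ± 0.13 and 2.15 ± 0.51 (SD, n = 3), *Birc5*, a subunit of the chromosomal passenger complex, 3.85 ± 0.21, *Ccnb1*, cyclin B1, 3.49 ± 0.51, and *Cenpa*, the centromeric histone, 5.73 ± 0.24. The list genes *Ccnb2*, *Cdc25b*, *Cks1b*, *Kif20a*, and *Nek2* were detected on no array, with mean levels of -0.20, -0.10, -0.15, -0.20, and -0.20. *Cdk1*, which stands in the table as *Cdc2a*, was detected on 1 array and *Top2a* on 2, at 2.11 and 2.21.

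*Foxd4* had levels of 2.79, 2.56, and 2.47, a mean of 2.61 ± 0.16 (SD, n = 3), and an adjusted p of 4.59e-05. Its relatives *Foxd1*, *Foxd2*, and *Foxd3* had mean levels of -0.12, -0.18, and -0.14 and were detected on no array. *Foxd3*, which is known from the epiblast and the neural crest, had a detection p of 0.0598, 0.343, and 0.484. Each array gave *Foxd4* a level above 2 and each relative a level under 0, and since these are different probes, the levels do not compare amounts of RNA between the genes.

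Among the 10 genes detected on 1 or 2 arrays, 4 were detected on 2. *Foxq1*, an epithelial forkhead gene, had levels of 0.18, 0.18, and -0.01, and its detection p on replicate 3 was 0.0107. Its adjusted p was 0.171, and 0.0213 without replicate 3, and it was 0.0414 on all 3 arrays with the background level taken at a detection p of 0.05, so both that array and the choice of background level decide the call. *Foxi2*, of a subfamily known from placodes and epidermis, had levels of 0.19, 0.01, and -0.02 and a detection p of 0.0160 on replicate 3. Its adjusted p from limma was 0.604, and it stayed uncalled without replicate 3 (0.272) and with that other background level (0.123). *Foxq1* and *Foxi2* were the 2 forkhead genes added when the detection threshold was relaxed to 0.05 on all 3 arrays. *Foxb1*, known from the neural tube, had levels of 0.14, -0.01, and -0.18 and was detected on replicates 1 and 2, and *Foxp1* is described below. *Foxj1*, the regulator of motile cilia that is active in node cells, had levels of 0.06, -0.07, and -0.14. It was detected on replicate 1 (detection p of 0.00321) and not on replicates 2 and 3 (0.0481 and 0.186). Its mean level of -0.05 ± 0.10 (SD, n = 3) did not pass the one-sided limma test. A list of motile cilium genes also held regulators of ciliary genes and the polycystin genes *Pkd1l1* and *Pkd2*. In a model that the paper describes, non-motile cilia beside the node admit calcium through the channel PKD. Of the 12 genes of this mixed list in the table, 3 were detected on all 3 arrays (25.0%, median level -0.10). By limma, 3 passed at an adjusted p under 0.05, or 4 at an unadjusted one. The detected genes were *Pkd2*, the calcium channel polycystin 2, at 1.18 ± 0.55, *Rfx2*, a regulator of ciliary genes, at 0.21 ± 0.14, and *Tekt1*, a tektin of the axoneme, at 0.34 ± 0.20, of which *Rfx2* did not pass the limma test (adjusted p = 0.0623). The other gene that passed was *Dnah11*, an axonemal dynein heavy chain that stands in the table as *Dnahc11* and is named here after its values were seen. Its signal over several probes had a level of 2.11 ± 0.26 (adjusted p = 0.000197 from limma), while its combined detection p was under 0.01 on no array. *Foxj2* was detected on replicate 2 and *Foxk1* on replicate 1, with mean levels of 0.01 and -0.11.

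For 14 forkhead genes the signal is a mean over several probes, and their detection p is a combined value, which did not always follow the mean signal. Of these 14, 2 were detected on all 3 arrays (*Foxh1* and *Foxm1*), beside 20.1% of all symbols with several probes, whereas 6 exceeded the background level each time. The 4 that differ are *Foxj3*, *Foxo1*, *Foxp1*, and *Foxp3*, and they are the 4 genes that the limma test added. Of the 27 forkhead genes with 1 probe, 8 were detected on all 3 arrays, beside 20.8% of all such symbols. A mean above the background level requires at least 1 probe above it on that array, although not the same probe on each. Over all symbols, 26.3% had a signal above the background level on all 3 arrays, beside 14 of the 41 forkhead genes.

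*Foxo1*, an effector of insulin signalling that insulin-activated kinases keep out of the nucleus, had levels of 0.45, 0.48, and 0.23 and a mean of 0.39 ± 0.14 (SD, n = 3). Its adjusted p was 0.00826, and 0.0718 without replicate 2, while its detection p was 0.0483, 0.0603, and 0.295. *Foxj3* had levels of 0.43, 0.29, and 0.19, and its adjusted p of 0.0125 rose to 0.0929 without replicate 2. It was detected on replicate 1 alone, with a detection p of 0.000332, 0.0843, and 0.0336 on replicates 1, 2, and 3. *Foxp1*, a repressor known from heart, lung, and lymphoid development, had levels of 0.43, 0.20, and 0.28 and an adjusted p of 0.0112 (0.112 when not moderated). It was detected on replicates 1 and 3, with a detection p of 0.000699 and 0.000185, and not on replicate 2, with 0.0723. *Foxp3*, known as the defining factor of regulatory T cells, had levels of 0.55, 0.38, and 0.10. It too was detected on replicate 1 alone, with a detection p of 0.00409, 0.0905, and 0.231. Its adjusted p of 0.045 rose to 0.139 without replicate 1 and to 0.225 without replicate 2, so this call too needs both arrays. The combined detection p also went the other way. *Foxa2* and *Foxb1* on replicate 2 and *Foxk1* on replicate 1 were detected although their mean signals lay below the background level.

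The other Foxo genes, *Foxo3*, *Foxo4*, and *Foxo6*, had mean levels of -0.20, -0.23, and -0.17 and were detected on no array. Of 15 upstream regulators of Foxo proteins, 6 were detected on all 3 arrays (40.0%, median level 0.53), and 8 passed the limma test. The kinases *Pdpk1* and *Sgk1* had levels of 0.60 ± 0.13 and 3.79 ± 0.59 (SD, n = 3), the deacetylase *Sirt1* 1.30 ± 0.41, and the deubiquitinase *Usp7* 2.00 ± 0.26. Of 16 target genes of Foxo proteins, 4 were detected on all 3 arrays (25.0%, median level 0.04), and 7 passed the limma test. These 4 were *Cited2*, a transcriptional coregulator, at 2.28 ± 0.26, *Gadd45a*, a gene of the stress response, at 0.39 ± 0.13, *Irs2*, an insulin receptor substrate, at 1.36 ± 0.14, and *Sod2*, the mitochondrial superoxide dismutase, at 2.51 ± 0.41. Of 11 cofactors of Foxp and Foxk proteins, 8 were detected (72.7%, median level 1.00), and 10 passed the limma test. *Asxl1* and *Bap1*, of a complex that removes ubiquitin from histone H2A, had levels of 1.20 ± 0.23 and 1.55 ± 0.17, the corepressor *Ctbp2* 0.35 ± 0.10, *Gatad2b*, of the NuRD complex, 0.31 ± 0.08, and *Hcfc1*, a chromatin scaffold, 1.95 ± 0.52.

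**Figure D2:**
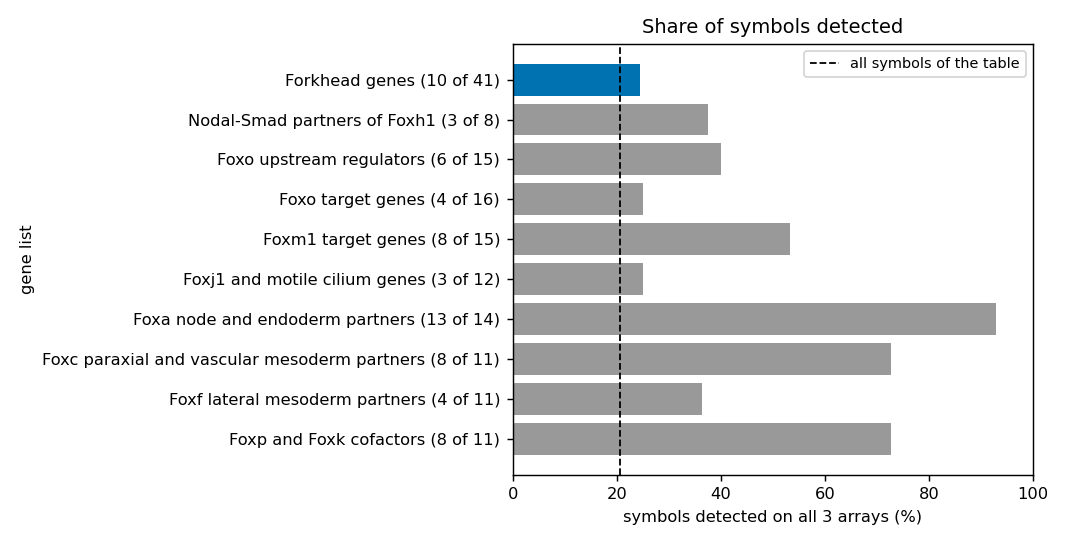
Share of symbols with a detection p under 0.01 on all 3 arrays (x axis, percent) for the forkhead genes and for 9 lists of genes that work with them (y axis, with counts), beside the 20.6% of all symbols (dashed line). The forkhead genes stand at 24.4%, and the lists range from 25.0% to 92.9%.

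Of the 21 forkhead genes detected on no array, 20 had mean levels between -0.26 and -0.09, and *Foxo1* had 0.39. They include all members of the Foxe subfamily (*Foxe1* and *Foxe3*), Foxl (*Foxl1* and *Foxl2*), and Foxr (*Foxr1*). Of Foxb and Foxi they include *Foxb2* and *Foxi1*, and of Foxn *Foxn1*, the thymic epithelial factor, *Foxn2*, and *Foxn4*. They also include *Foxp2* and *Foxp4*, at -0.23 and -0.10, and the genes of the Foxd, Foxf, and Foxo subfamilies named above. Their detection p ranged from 0.0160 to 0.960. Their bead numbers, a mean where there were several probes, ranged from 25 to 52, beside 27 to 51 for the detected genes. A signal at background is a limit of detection and does not show that the transcript was absent.

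All 10 detected forkhead genes were lowest on replicate 3, both as deposited and relative to the background level. This order was shared by most detected symbols, of which 93.4% were lowest on replicate 3 as deposited and 85.1% relative to background. After quantile normalization 2 of the 10 were lowest on replicate 3, where 34.0% of detected symbols were, and 4 were highest on replicate 2, where 29.4% were. *Foxa3* then stood at 8.66, 9.06, and 8.39 on replicates 1, 2, and 3 (log2 signal), with replicate 2 exceeding the mean of replicates 1 and 3 by 0.54. *Foxf1a* was 0.31 higher on replicate 2 by the same measure, *Foxa1* 0.19, and *Foxm1* 0.14. The median of this difference was -0.05 over the 10 detected genes and -0.01 over all detected symbols. No test is given for these differences, because the arrays are replicates of 1 group.

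Markers of visceral endoderm, the extraembryonic epithelium that also contributes cells to the gut, were higher on the same array. Of 14 such markers, 13 were detected on all 3 arrays, 11 were highest on replicate 2 after quantile normalization, and in the median replicate 2 exceeded the mean of replicates 1 and 3 by 0.41. Their summed linear signal as deposited was 15279, 16322, and 7836 on replicates 1, 2, and 3. These sums and those below are not normalized between arrays, and 93.4% of detected symbols were lowest on replicate 3 as deposited. After quantile normalization the median of the 14 markers was 8.39, 9.14, and 8.57 (log2 signal) on replicates 1, 2, and 3, although 9 were lowest on replicate 3. The part of visceral endoderm in the signals of *Foxa1*, *Foxa3*, *Foxf1a*, and *Foxm1* was not tested, and more cells of a type and more RNA per cell cannot be told apart. Of 15 extraembryonic ectoderm markers, 5 were detected, with sums of 4203, 3937, and 2627, and 7 of the 15 were highest on replicate 2 after quantile normalization. The 5 were *Bmp4*, *Cdx2*, *Ets2*, *Rhox5*, and *Tfap2c*, of which *Bmp4* is also in the lateral mesoderm list above. Those detected on no array were *Ascl2*, *Elf5*, *Eomes*, *Esx1*, *Gcm1*, *Pcsk6*, and *Tead4*. Of 13 markers of the embryonic region, 9 were detected, with sums of 4975, 3747, and 2911, and 2 of the 13 were highest on replicate 2. None of 6 primitive erythroid and 3 decidual markers was detected on any array, and by limma 0 passed at an adjusted or an unadjusted p under 0.05.

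**Figure D3:**
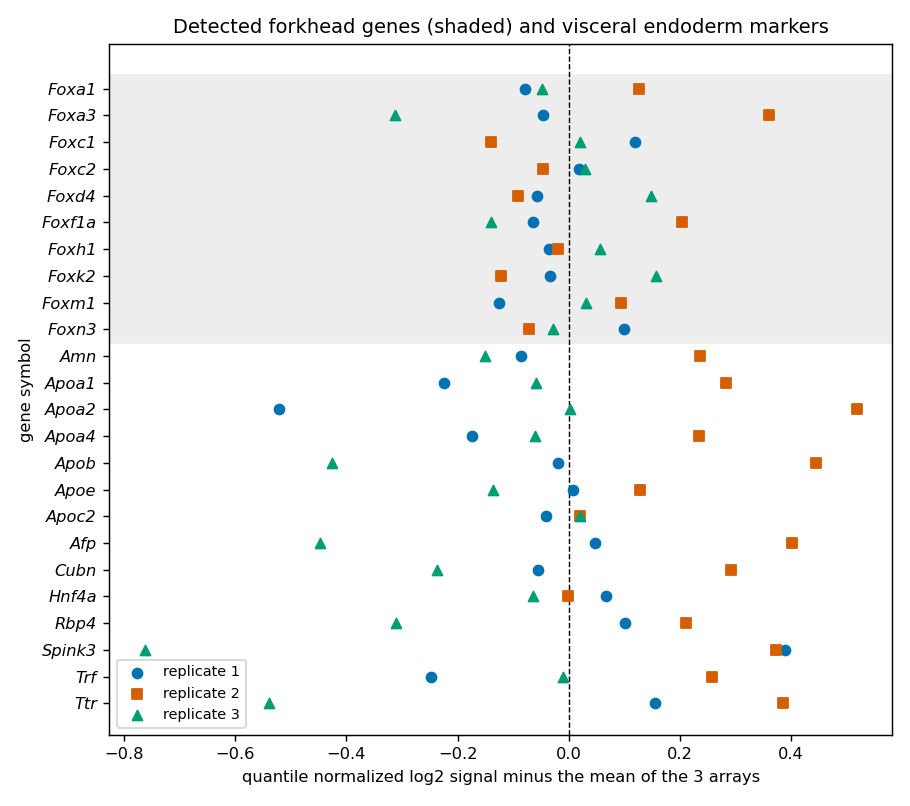
Quantile normalized log2 signal minus the mean of the 3 arrays (x axis) for the 10 detected forkhead genes (shaded) and 14 visceral endoderm markers (y axis), with 1 symbol per replicate. *Foxa3* spans from 8.39 on replicate 3 to 9.06 on replicate 2 before its mean is subtracted, and 11 of the 14 markers are highest on replicate 2.

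For the 8 detected forkhead genes with 1 probe, the spread between arrays was set beside the deposited standard error over beads, converted to the log2 scale. The ratio of the SD between arrays after quantile normalization to the mean bead error was 3.96 for *Foxa3* and 2.72 for *Foxf1a*. It was 1.67 for *Foxk2*, 1.55 for *Foxc1*, 1.23 for *Foxd4*, and 1.15 for *Foxa1*, and it lay under 1 for *Foxn3* (0.892) and *Foxc2* (0.595). The standard error describes the mean over the beads of 1 array and not the scatter of single beads, and the SD between arrays also holds any difference between the samples, so a ratio above 1 is no test of a difference.

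**Figure D4:**
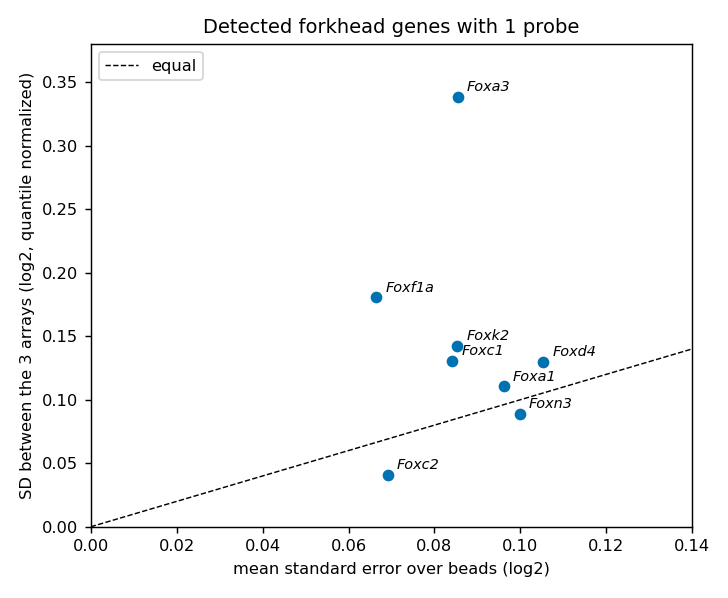
SD between the 3 arrays after quantile normalization (y axis, log2) against the mean standard error over beads (x axis, log2) for the 8 detected forkhead genes with 1 probe, with the line of equal values dashed. *Foxa3* (ratio 3.96) and *Foxf1a* (2.72) lie farthest above the line, and *Foxn3* and *Foxc2* lie below it.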

How the data were processed

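RNA from 3 replicates of wild-type EHF embryonic regions was hybridized to Illumina Mouse-6 arrays. The authors deposited log2 signals per gene symbol, averaged over probes and not normalized between arrays, and Partek is named in their processing notes. Detection p-values, the mean number of beads per symbol (another deposited score of precision), and the standard error over beads as a linear intensity were also deposited. The background correction and annotation version are not given in the sources used here. The members and gene lists were chosen with earlier results of these data known.

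A symbol was taken to have 1 probe where its mean bead numbers were whole on all arrays and its detection p-values were multiples of 1 in 936 within 0.002 of a step (21986 symbols). For 676 symbols, *Foxo1* and *Foxo3* among them, bead numbers were whole but p-values were off these steps, and they were counted among the 8866 symbols with several probes. Probe numbers are lower limits. The level was tested with limma 3.58.1 in R 4.3.3 (lmFit with an intercept, eBayes, one-sided), checked first on simulated data. Genes of the lists were named where detected on all 3 arrays, at most 5 per list in alphabetical order. For the lists of Foxh1 partners, lateral mesoderm, and Foxm1 targets, genes not detected on all 3 arrays were added after their values were seen. The values of 1 forkhead gene and 1 list gene are not reported here, though both are in the counts. Older symbols and neighbours were taken from RefSeq GRCm38.p6. Python 3.11.15, numpy 2.4.6, and pandas 2.3.3 were used. The number of arrays limits the precision.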

Additional observations from a re-analysis of the deposited data

How the results depend on the processing

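The 10 detected forkhead genes became 20 with detection on at least 1 array (48.8%, beside 33.0% of all symbols) and 17 where the mean signal had to exceed the mean background level (41.5%, beside 30.3%), since both ask for less. Without a replicate they numbered 10 to 13, beside 21.1% to 24.1% of all symbols. The count of 14 from limma became 6 when the variance was not moderated. The share of all symbols called also fell, from 23.4% to 13.2%. *Foxa3*, *Foxc1*, *Foxc2*, *Foxf1a*, *Foxj3*, *Foxo1*, *Foxp1*, and *Foxp3* lost the call (adjusted p from 0.06 to 0.247). Without a replicate the limma count was 10 to 15, beside 18.0% to 25.8% of all symbols, and both were lowest without replicate 2. Median scaling gives the same levels by construction. The count of detected genes lowest on replicate 3 fell from 10 to 2 with quantile normalization and to 2 with normexp and quantile normalization, the latter chosen after seeing the data, because these set the arrays to one distribution. No called level of a named forkhead gene changed sign, although calls were lost or gained as given here and beside *Foxf1a*, *Foxj3*, *Foxo1*, *Foxp3*, and *Foxq1*. The uncalled levels of *Foxb1*, *Foxi2*, *Foxj1*, and *Foxj2*, which lay near the background level, did change sign between settings. Detected genes of the 9 lists numbered 57 of 113 and stayed within 1.5 times that count. No paired analysis was possible because the arrays form 1 group. Transcripts whose signal does not clear the background of these arrays could not be called.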
